A study of Rattus norvegicus and Mus musculus with 61 samples.

Results

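The comparison described here is rat cortex taken 4 h after fluid percussion against cortex taken 4 h after sham surgery. Its members were the arrays whose labels name those groups, 3 of injury and 4 of sham, which is 7 of the 39 rat arrays and of the 61 arrays of the series. The series followed gene expression in injured mouse and rat brain from 30 min to 21 d. The rats were male Sprague-Dawley animals of 400 ± 25 g under sodium pentobarbital. In the injury group a brief 2.5 atm pressure pulse deformed the brain, and the parieto-occipital cortex around the point of impact, contusion included, was cut out as a disk of 7 mm. Sham rats had the surgery without the pulse, and a disk of the same size and cortical area was taken. Each array held RNA of 1 rat, with no pooling. The 3 naive rats and the sham groups of the other times were used as further uninjured cortex where this is said. Titles of the 3 injury arrays carry the letter b and those of the 4 sham arrays the letter a. The labels do not say what the letter means, and within 4 h it cannot be told apart from the injury. All rat arrays of 30 min, 8 h, 24 h and 72 h carry the letter a. Differences between the injury effect of 4 h and that of those times therefore cannot be told apart from the letter either.

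A mechanical blow to the cortex tears small vessels and kills cells, and the surviving microglia, astrocytes and vessel cells respond within hours. Molecules leaking from dying cells and blood activate receptors that signal to NF-kB, a transcription factor held in the cytoplasm by inhibitor proteins of the IkB family. Its targets include interleukins, chemokines that draw in neutrophils and monocytes, adhesion molecules on vessel walls, and its own inhibitor. Heat shock proteins, heme oxygenase and stress transcription factors answer protein damage, free heme and oxidants.

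Of the 4 sham arrays, 2 did not resemble the rest of the rat arrays. The median correlation of log2 signals with the other arrays was 0.662 for sham replicate 3 and 0.537 for sham replicate 4, against 0.755 to 0.931 for the other 37 arrays. The GAPDH control probe set at the 3′ end read 3914 and 482 in these arrays, against 8743 to 25875 elsewhere, and the one for beta-actin 2255 and 2202, against 4857 to 29581. Their brightest probe sets reached 83967 and 82504, and no other rat array exceeded 56126. Mbp, which encodes myelin basic protein and marks white matter and myelinated cortex, read 302 and 238 there and 11152 to 25944 in the other 5 arrays of 4 h. The list of 13 myelin and oligodendrocyte genes differed less, with sums of 24165 and 21327 there, against 42509 to 59073. The other 5 arrays correlated with each other at 0.92 to 0.96 and with sham 3 or 4 at 0.49 to 0.67, while sham 3 and sham 4 correlated with each other at 0.80. Sums of marker lists also shifted there, and not only those of other tissue. The 5 pituitary hormone genes summed to 3351 and 5358, against 770 to 1357 in the other 5 arrays. The 18 fibroblast, meningeal and matrix genes summed to 68888 and 66095, against 28831 to 39157. Choroid plexus (6121 and 7981), striatal (3529 and 3746) and skeletal muscle genes (10949 and 12352) lay within the range of the other 5 arrays. The 16 endothelial, pericyte and vessel wall genes summed to 17565 and 26824, against 6734 to 7828. The 13 complement genes summed to 18763 and 19031, against 8126 to 9491. The 31 neuronal and synaptic genes were lower, at 106499 and 117868, against 151833 to 186297. The 29 glutamate and GABA receptor subunits (25999 and 29279) lay within the range. The cause was not tested. Because sham 3 and 4 stood apart, differences at 4 h are given with all 4 sham arrays and without these 2, unless another reference is named.

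**Figure D1:**
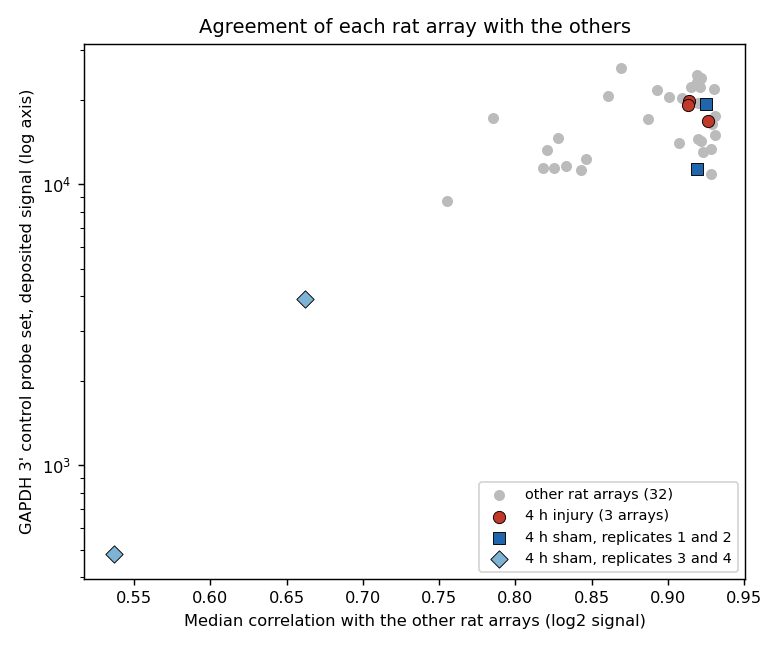
Each point is 1 of the 39 rat arrays. The horizontal axis is its median correlation with the other rat arrays, and the vertical axis (log scale) the deposited signal of the GAPDH 3′ control probe set. The sham 4 h replicates 3 and 4 (light diamonds) lie at 0.662 and 0.537, below the 0.755 to 0.931 of all other arrays.

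Signals are the deposited intensities of an Affymetrix rat array, with a floor of 32.1. A difference is the mean log2 signal of injury minus that of sham, ± its standard error from limma, and calls were made where limma's p, adjusted after Benjamini and Hochberg over 4091 genes, was below 0.05. With all sham arrays, 120 genes rose (2.93% of those tested) and 84 fell (2.05%). Without sham 3 and 4, 23 rose (0.562%) and 2 fell (0.0489%). Called in the same direction both ways were 22 genes, of which 21 rose (0.513%) and 1 fell (0.0244%). The 21 included chemokines and interleukins (Ccl3, Ccl4, Ccl2, Cxcl2, Il1a, Il1b, Il6), and Spp1, a matrix protein and cytokine. They also included the NF-kB genes Nfkb1 and Nfkbia, the transcription factors Irf1 and Atf3, and the stress genes Hspa1a and Hmox1. The rest were the matrix, adhesion and clotting genes Timp1, Icam1 and F3, the red cell genes Hba-a3 and Alas2, and Errfi1 and Ifitm3. The 1 fall was Hes5. Over the 22, the median size of the difference was 2.03 with all sham arrays and 2.04 without the 2. The median over all genes was -0.12 and 0.01. In 18 of the 21 rises every injury array lay above every sham array, which held for 5.48% of all genes tested, and the exceptions are named with their values below.

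**Figure D2:**
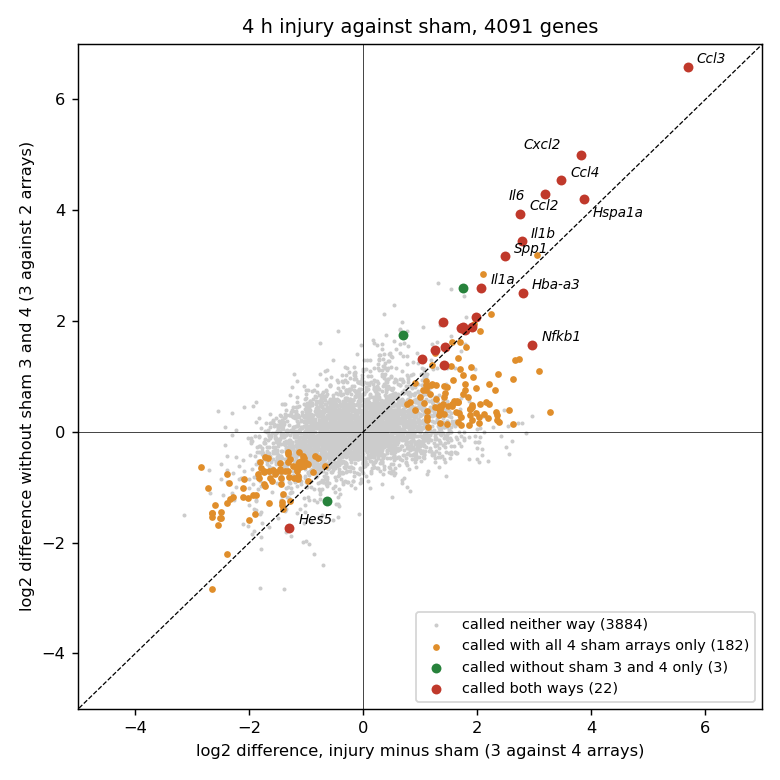
Each point is 1 of 4091 genes, with the log2 difference of injury minus sham from all 4 sham arrays on the horizontal axis and from sham 1 and 2 alone on the vertical axis; the dashed line marks equal values. Among genes called both ways (22, red), most chemokines and interleukins lie above the line and Nfkb1, Hba-a3, Nfkbia and Hes5 below it, while the 182 genes called only with all sham arrays (orange) lie mostly nearer to 0 on the vertical axis.

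The chemokine Ccl3, which draws monocytes and neutrophils and is made by microglia and macrophages, had the largest rise. Its signal was 4462, 5556 and 2001 in injury replicates 1 to 3, and 32.1, 45.6, 169 and 104 in sham replicates 1 to 4. The lowest injury array was far above the highest sham array, and all 3 naive arrays were at the floor. The difference was 5.69 ± 0.56 with all sham arrays (adjusted p = 5.96e-08) and 6.59 ± 0.61 without sham 3 and 4 (adjusted p = 1.78e-08). Ccl4, a close relative that binds the same receptor on monocytes and T cells, read 2039, 2392 and 907 after injury and 69.2, 71.9, 388 and 253 in sham. Its difference was 3.47 ± 0.65 (adjusted p = 0.00234) with all sham arrays and 4.54 ± 0.70 (adjusted p = 0.000321) without the 2. In both genes sham 3 and 4 were the highest sham arrays, and the groups did not overlap.

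Cxcl2, which attracts neutrophils through the receptor Cxcr2, read 1213, 1120 and 797 after injury. Sham 1 and 2 were at the floor, and sham 3 and 4 read 170 and 161, so the rise was at least 32-fold against sham 1 and 2. The difference with all sham arrays was 3.82 ± 0.71 (adjusted p = 0.00234), and without the 2 it was 5.0 ± 0.76 (adjusted p = 0.000321). Ccl2, the main attractant of monocytes, read 3479, 4288 and 572 after injury and 125, 143, 682 and 709 in sham. Here the groups overlapped, because injury 3 lay below sham 3 and sham 4. The difference was 2.75 ± 0.64 (adjusted p = 0.0161) with all sham arrays and 3.94 ± 0.67 (adjusted p = 0.00109) without the 2. Spp1 encodes osteopontin, a secreted matrix protein and cytokine of activated macrophages. Its signal was 1638, 1497 and 296 after injury and 83.4, 119, 249 and 274 in sham, so that injury 3 stood just above the highest sham array. Its difference was 2.48 ± 0.55 (adjusted p = 0.0136), or 3.17 ± 0.63 (adjusted p = 0.00685) without sham 3 and 4.

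The interleukins Il1b and Il1a are the activating ligands of the interleukin-1 receptor, and Il6 acts through the receptor chain gp130 to activate STAT3. Il1b read 1574, 2031 and 1057 after injury and 162, 117, 505 and 236 in sham. It rose by 2.78 ± 0.45 with all sham arrays (adjusted p = 0.000547) and by 3.44 ± 0.48 without the 2 (adjusted p = 8.00e-05). The 2 further Il1b probe sets gave 2.45 and 2.72 with all sham arrays, so the direction did not rest on 1 probe set. Il1a read 1478, 1183 and 1301 after injury, with little spread, and 191, 245, 845 and 241 in sham, where sham 3 stood alone. The difference was 2.07 ± 0.50 (adjusted p = 0.022) and, without sham 3 and 4, 2.60 ± 0.54 (adjusted p = 0.0104). Il6 read 1363, 919 and 419 after injury, against 32.1, 53, 285 and 130 in sham. It rose by 3.18 ± 0.77 (adjusted p = 0.0233), or 4.29 ± 0.86 (adjusted p = 0.00685) without the 2. As sham arrays of Ccl3, Cxcl2 and Il6 sat at the floor, these differences depend on it. With the floor at the 25th percentile (93.3) they were 5.05, 3.05 and 2.59 with all sham arrays and 5.30, 3.46 and 3.11 without the 2, and all stayed called. In naive cortex Il6 lay at or near the floor, at 32.1 to 37.6.

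Of 29 listed cytokines and chemokines, 18 were measured, and 8 of these rose both ways, against 0.513% of all genes; none fell. Since these genes were already known to rise in these data when the list was drawn up, the count is a description. The list's median difference was 0.92 with all sham arrays and 1.47 without sham 3 and 4, beside -0.12 and 0.01 over all genes. The other 10 were not called either way. Among them Cxcl10, an interferon-induced chemokine for T cells, had 1.34 with all sham arrays (adjusted p = 0.113) and 1.93 without the 2 (adjusted p = 0.26). The anti-inflammatory cytokine Tgfb1 had -0.76 (adjusted p = 0.444) and -1.55 (adjusted p = 0.644), and Il10 had -0.56 (adjusted p = 0.496) and, with the sign turned, 0.55 (adjusted p = 0.944).

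**Figure D3:**
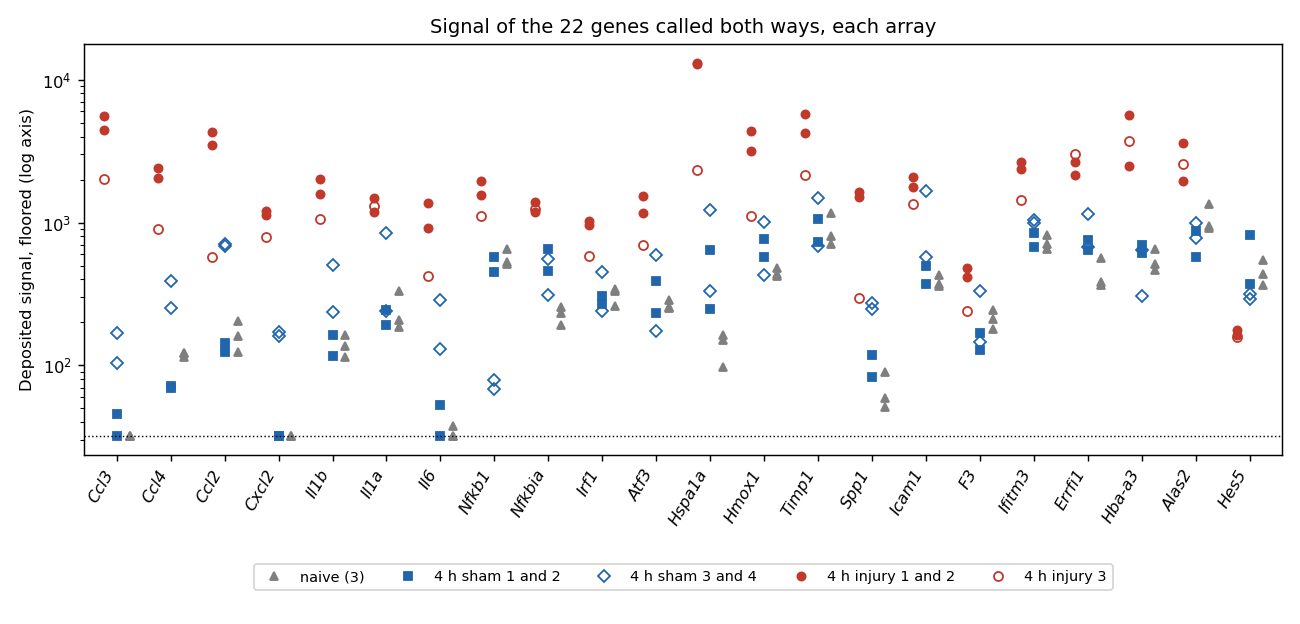
Deposited signal (log axis, dotted line at the floor of 32.1) of the 22 genes called both ways in each array of 4 h injury (red), 4 h sham (blue) and naive rats (grey). Open red circles are injury replicate 3 and open diamonds sham replicates 3 and 4; the overlaps of injury with sham are in Ccl2, Icam1 and F3.

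NF-kB itself and its inhibitor rose as well. Nfkb1, which encodes the precursor of a DNA-binding NF-kB subunit, read 1568, 1943 and 1114 after injury, 572 and 450 in sham 1 and 2, and 79.3 and 67.8 in sham 3 and 4. The 2 arrays that stood apart were thus lower than the other sham arrays, opposite to the chemokines, and the difference was 2.96 ± 0.47 with them (adjusted p = 0.000547) and 1.57 ± 0.33 without (adjusted p = 0.0113). Nfkbia encodes IkB-alpha, the inhibitor that NF-kB induces and that then returns it to the cytoplasm. It read 1389, 1182 and 1249 after injury and 654, 459, 557 and 310 in sham. It rose by 1.41 ± 0.26 (adjusted p = 0.00234), and by 1.21 ± 0.28 without sham 3 and 4 (adjusted p = 0.0279). Irf1, a transcription factor induced by interferon and NF-kB, read 959, 1033 and 581 after injury and 307, 269, 453 and 239 in sham. Its difference was 1.44 ± 0.29 (adjusted p = 0.00444) and 1.53 ± 0.32 without the 2 (adjusted p = 0.0104). A second Irf1 probe set did not show this rise, with mean differences of 0.28 and 0.05. These were the 3 both-way rises among 17 measured genes for cytokine receptors and signalling, against 0.513% of all genes. The list's median was 0.49 both with and without the 2 arrays. Of the interleukin receptor chains, Il1r1 had -1.45 (adjusted p = 0.228) with all sham arrays and 0.12 (adjusted p = 0.992) without the 2. Il6st, which encodes gp130, had 1.38 (adjusted p = 0.062) and 0.44 (adjusted p = 0.938).

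Promoter sequences are shown for Cxcl2, Il6, Irf1 and Nfkbia because a search for the NF-kB consensus site found it close to their starts. They were read from RefSeq on build GRCr8, which held a promoter of 250 bases before and 50 after the start for 15 of the 21 rising genes. The sequences below are the 120 bases before the start, 5′ to 3′ on the gene's strand, with capitals marking bases that match the consensus on either strand. Cxcl2 lies at chr14:17467256-17467375 on the minus strand, Il6 at chr4:5894576-5894695 on the minus strand, Irf1 at chr10:38417815-38417934 on the plus strand and Nfkbia at chr6:78597073-78597192 on the minus strand.
Cxcl2: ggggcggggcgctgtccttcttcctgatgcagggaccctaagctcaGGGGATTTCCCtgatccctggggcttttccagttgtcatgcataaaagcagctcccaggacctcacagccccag
Il6: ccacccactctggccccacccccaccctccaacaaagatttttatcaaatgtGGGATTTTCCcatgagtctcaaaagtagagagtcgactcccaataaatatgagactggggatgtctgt
Irf1: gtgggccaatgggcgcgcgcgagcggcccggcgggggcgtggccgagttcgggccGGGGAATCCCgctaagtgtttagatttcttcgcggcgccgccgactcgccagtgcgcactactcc
Nfkbia: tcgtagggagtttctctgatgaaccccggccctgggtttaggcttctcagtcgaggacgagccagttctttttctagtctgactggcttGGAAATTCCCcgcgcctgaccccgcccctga
The match began 74, 68, 65 and 31 bases before the start, in that order. Over the whole window of 300 bases the consensus was found in 6 of the 15 rising genes, the other two being Nfkb1 and Ifitm3. It was found in 337 of 3360 measured genes with a promoter entry (10%) and in 7.51% of all 33469 promoters. The AP-1 site TGANTCA was found in 2 of the 15 (Il1a and Ifitm3), in 5.51% of measured genes and in 7.33% of all promoters. Both strands were also searched for TATAAA, found in 7 of the 15, 10.4% of measured genes and 14.2% of all promoters, and for the heat shock letters GAANNTTC, found in 1 of the 15 (Ifitm3), 5.15% and 8.59%. A match is a string of letters in the window and was not tested for binding.

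Among immediate early transcription factors, which are switched on by stress and neuronal activity without new protein synthesis, Atf3 rose both ways. Atf3, a stress-induced member of the ATF family and a marker of injured neurons, read 1545, 1167 and 691 after injury and 233, 387, 590 and 174 in sham. The difference was 1.79 ± 0.38 (adjusted p = 0.00734) with all sham arrays and 1.84 ± 0.40 (adjusted p = 0.0179) without the 2. Of the 26 measured genes of this list, 5 rose with all sham arrays, against 2.93% of all genes. Without sham 3 and 4, 1 rose and 1 fell, against 0.562% and 0.0489% of all genes. The list's median was 0.44 with all sham arrays and 0.59 without the 2. Jun, a subunit of AP-1, had 2.73 with all sham arrays (adjusted p = 0.00234) but 1.31 without the 2 (adjusted p = 0.172). Fos, its partner, had 0.38 (adjusted p = 0.468) and 1.15 (adjusted p = 0.146). The activity-regulated gene Arc had 0.92 (adjusted p = 0.184) and 0.35 (adjusted p = 0.985), and Egr1 0.76 (adjusted p = 0.261) and 1.02 (adjusted p = 0.723).

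Hspa1a, the inducible heat shock protein of the Hsp70 family that refolds damaged proteins, read 12849 and 13153 in injury 1 and 2 and 2331 in injury 3. Sham read 247, 641, 329 and 1231, and naive cortex 97.1 to 163. For Hspa1a, as for Nfkbia and Errfi1, all 4 sham arrays lay above all 3 naive arrays, which was not tested. It rose by 3.87 ± 0.67 (adjusted p = 0.00152), or 4.20 ± 0.77 without sham 3 and 4 (adjusted p = 0.00294). Its probe set can also bind RNA of the near-identical neighbouring copy, so the value may cover both. No other of the 20 measured heat shock and co-chaperone genes was called both ways, while 0.513% of all genes rose both ways. The list's median was 0.42 with all sham arrays and 0.24 without the 2, beside -0.12 and 0.01 over all genes. With all sham arrays Stip1 also rose (2.63, adjusted p = 0.0421) and Hsf1 fell (-1.44, adjusted p = 0.0253), against 2.93% and 2.05% of all genes. Without the 2 they had 0.14 (adjusted p = 0.986) and -0.70 (adjusted p = 0.597). The small heat shock protein Hspb1 had 1.03 (adjusted p = 0.0529) with all sham arrays and 0.85 (adjusted p = 0.454) without the 2. The co-chaperone Dnajb1 had 0.87 (adjusted p = 0.0774) and 1.05 (adjusted p = 0.27). Hmox1 encodes heme oxygenase, which breaks down free heme and is induced by it. It read 3142, 4386 and 1109 after injury and 771, 571, 1003 and 428 in sham, with injury 3 just above sham 3. Its difference was 1.91 ± 0.40 (adjusted p = 0.00673), and 1.90 ± 0.45 without sham 3 and 4 (adjusted p = 0.0354). It was the 1 both-way rise among 23 genes measured for oxidative stress and metal response, against 0.513% of all genes. That list's median was 0.24 with all sham arrays and -0.03 without the 2. Superoxide dismutase Sod2 had 0.61 (adjusted p = 0.175) and 0.66 (adjusted p = 0.724).

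Timp1, a secreted inhibitor of matrix metalloproteinases, read 4206, 5726 and 2140 after injury and 1053, 733, 1487 and 682 in sham. It rose by 1.98 ± 0.32 (adjusted p = 0.000547) and by 2.08 ± 0.35 without the 2 (adjusted p = 0.00109). A second Timp1 probe set gave the larger mean differences of 4.40 and 3.93. Icam1, the vessel wall molecule on which leukocytes arrest, read 1762, 2097 and 1350 after injury and 495, 371 and 573 in sham 1 to 3. Sham 4 read 1649 and so overlapped with injury. The difference was 1.40 ± 0.40 (adjusted p = 0.0418) with all sham arrays and 1.99 ± 0.40 (adjusted p = 0.00685) without the 2, and a second Icam1 probe set gave 0.51 and 1.48. F3 encodes tissue factor, which starts clotting when blood meets brain tissue and is made by astrocytes. It read 417, 484 and 240 after injury and 128, 168, 334 and 145 in sham, so injury 3 lay below sham 3. Its difference was 1.02 ± 0.30 (adjusted p = 0.0455) and 1.32 ± 0.31 without the 2 (adjusted p = 0.0333). These 3 were the both-way rises among 25 measured genes for adhesion, proteases and matrix, against 0.513% of all genes. The list's median was 0.49 with all sham arrays and 0.51 without the 2. The gelatinase Mmp9 had -0.29 (adjusted p = 0.816) and -0.06 (adjusted p = 0.994), and the hyaluronan receptor Cd44 1.05 (adjusted p = 0.195) and 1.90 (adjusted p = 0.25).

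Errfi1 and Ifitm3, which no gene list held, complete the set of 22. Errfi1, a feedback inhibitor of the EGF receptor, read 2137, 2641 and 3005 after injury and 759, 640, 1145 and 673 in sham. Its differences were 1.72 ± 0.31 (adjusted p = 0.00234) and 1.88 ± 0.35 without the 2 (adjusted p = 0.00392). It was the 1 rise in which injury 3 was the highest array. The other Errfi1 probe sets gave 0.68 and 0.57, and 2.31 and 3.14. Ifitm3, an interferon-induced membrane protein that blocks virus entry, read 2364, 2651 and 1436 after injury and 840, 675, 1048 and 987 in sham. Its differences were 1.25 ± 0.23 (adjusted p = 0.00234) and 1.47 ± 0.26 without the 2 (adjusted p = 0.00213).

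The alpha-globin gene Hba-a3 and the red cell marker Alas2 rose both ways, as did 0.513% of all genes. Hba-a3 lies outside the list of red cell markers, and Alas2 was 1 of the 4 measured genes of that list. Hba-a3 read 5685, 2484 and 3707 after injury and 613, 699, 305 and 642 in sham. It rose by 2.80 ± 0.50 (adjusted p = 0.00234), or 2.51 ± 0.59 without sham 3 and 4 (adjusted p = 0.0295); globin genes are near-identical copies, and the probe set may read several. Alas2, the red cell enzyme that starts heme synthesis, read 3597, 1959 and 2565 after injury and 570, 875, 988 and 773 in sham. Its differences were 1.74 ± 0.35 (adjusted p = 0.00516) and 1.89 ± 0.42 (adjusted p = 0.0186). The summed signal of the 4 measured red cell markers was 24384 to 32263 after injury, 12425 and 13981 in sham 1 and 2, 3856 and 4236 in sham 3 and 4, and 14345 to 19027 in naive cortex. Hbb, the beta-globin gene, had 2.36 with all sham arrays (adjusted p = 0.00253) and 1.05 without the 2 (adjusted p = 0.244). Slc4a1, the red cell anion exchanger, had -0.20 (adjusted p = 0.609) and 0.16 (adjusted p = 0.986), and the embryonic globin gene Hbe1 1.08 (adjusted p = 0.188) and 0.13 (adjusted p = 0.992). The part of blood in the other results was not tested.

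Hes5, a Notch target that keeps neural progenitors undifferentiated and is found in astrocytes, was the 1 gene that fell both ways. It read 176, 164 and 157 after injury and 369, 818, 314 and 292 in sham. All injury arrays lay below all sham arrays, and the difference was -1.30 ± 0.35 (adjusted p = 0.0371), or -1.73 ± 0.40 without the 2 (adjusted p = 0.0256). Sham 2, at 818, was the highest array. Against the 16 uninjured arrays described below it had -1.12 (adjusted p = 0.123). In bulk tissue, fewer cells of a type and less RNA per cell cannot be told apart.

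Injury replicate 3 had the smallest rises. It was the lowest injury array in 16 of the 21 rises, injury 2 in 4 and injury 1 in 1. Its log2 signal was below the mean of injury 1 and 2 by a median of -0.80 over the 21 genes (range -2.76 to 0.34), while over all 4091 genes the median was -0.03. The largest gaps were those of Ccl2, Hspa1a and Spp1. Its choroid plexus genes summed to 20160, against 4043 and 4125 in the other injury arrays and up to 34938 in naive rats, and its 31 neuronal and synaptic genes to 186297, against 151833 and 156465.

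Leaving out 1 array at a time from the comparison with all sham arrays, 10 of the 22 genes kept their call each time, and none changed direction. These were Ccl3, Ccl4, Cxcl2, Il1b, Nfkb1, Nfkbia, Hspa1a, Timp1, Errfi1 and Hba-a3. Without injury 1, 10 genes lost theirs (adjusted p 0.0567 to 0.129), and without injury 2, 11 did (0.0514 to 0.198), with Ccl2, Il6, Spp1, Il1a, Hmox1, Atf3, Icam1, F3 and Hes5 in both sets. Alas2 also lost its call without injury 1 (0.0573), and Irf1 (0.0703) and Ifitm3 (0.0514) without injury 2. Without injury 3, Il1a (0.0526), Icam1 (0.0592) and Hes5 (0.0878) were lost. Icam1 (0.109) and Hes5 (0.0546) were lost without sham 3, and Il1a (0.081) and F3 (0.202) without sham 4. These losses concern the comparison with all sham arrays. Of the 22 genes, 8 stayed called both ways without injury 1, 9 without injury 2 and 17 without injury 3. Not all of the 10 genes therefore kept the call both ways. With quantile normalization, 14 of the 22 stayed called both ways; Nfkb1, Nfkbia, Atf3, Hmox1, Hba-a3, Alas2, F3 and Hes5 did not, with adjusted p of 0.0553 to 0.0905 without sham 3 and 4. With the title letter as a term, which raised the standard errors 1.94 times in the median, no gene was called (lowest among the 22: Ccl3, adjusted p = 0.058). Estimates moved both ways, such as Ccl4 from 3.47 to 1.49 and Hba-a3 from 2.80 to 4.38. Only the injury group of 21 d holds both letters a and b, with b in 1 array, so the correction for b rests on that array. With the 4 h arrays alone in the fit only Ccl3 was called (adjusted p = 0.0488).

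The 182 genes called only with all sham arrays moved the same way without sham 3 and 4, but their median size went from 1.63 to 0.70. Of these, 99 rose and 83 fell, 136 had a difference under 1 without the 2 arrays, and 69 kept an unadjusted p below 0.05. Mbp, named above, was one of the largest, with 3.28 ± 0.90 (adjusted p = 0.0387) and 0.35 ± 0.53 without the 2 (adjusted p = 0.985). The tetraspanin gene Cd63 of lysosomes and microglia read 5377, 6130 and 3033 after injury, 2019 and 2314 in sham 1 and 2, and 453 and 43.1 in sham 3 and 4. Its difference went from 3.08 ± 0.70 (adjusted p = 0.0139) to 1.10 ± 0.38 (adjusted p = 0.28). S100a8, a calcium-binding protein abundant in neutrophils, read 265, 943 and 483 after injury and 32.1, 90.1, 79.3 and 55.7 in sham. Its groups did not overlap, and its difference held its size, 3.05 ± 0.73 (adjusted p = 0.0203) and 3.20 ± 0.88 (adjusted p = 0.106), while the call was lost with fewer arrays. Its partner S100a9 had 2.09 (adjusted p = 0.0484) and 2.84 (adjusted p = 0.0613).

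Called only without sham 3 and 4 were 3 genes. Plin2, which coats lipid droplets, read 1044, 995 and 404 after injury and 107, 143, 316 and 524 in sham, with 2.59 ± 0.57 without the 2 (adjusted p = 0.0186) and 1.74 ± 0.53 with them (adjusted p = 0.0503). Ppp1r15a, a stress-induced regulator of translation, read 1317, 1874 and 1138 against 626 and 283 in sham 1 and 2, but 1958 and 1651 in sham 3 and 4. Its difference was 1.75 ± 0.40 (adjusted p = 0.0256) without and 0.70 ± 0.44 (adjusted p = 0.276) with them. Id1, an inhibitor of DNA-binding transcription factors downstream of BMP signals, fell, with 349, 529 and 297 after injury and 749, 1090, 464 and 322 in sham. Its difference was -1.25 ± 0.28 (adjusted p = 0.0198) without and -0.64 ± 0.29 (adjusted p = 0.146) with them.

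Markers of the resident cell types were checked next, since the disks are cortex. None of the 31 measured neuronal and synaptic genes was called either way, and their median difference was 0.34 with all sham arrays and -0.08 without the 2. Of 13 myelin and oligodendrocyte genes 1 (Mbp) was called with all sham arrays and none without, and of 29 glutamate and GABA receptor subunits 1 (Grm3) and none. Of 13 microglia and macrophage markers, 1 (Cd63) was called with all sham arrays and none without; their summed signal was 13360 to 21025 after injury and 10792 to 11980 in sham. Without the 2 arrays the 13 markers had a median difference of 0.46, beside 0.01 over all genes. The range was from -0.48 (the fractalkine receptor Cx3cr1) to 1.10 (Cd63). With all sham arrays their median was 0.44, beside -0.12 over all genes. Of 16 reactive astrocyte markers Timp1 rose both ways, and Lcn2 and Clu (adjusted p = 0.0368 each) rose with all sham arrays only (without the 2, adjusted p = 0.25 and 0.848). The list's median was -0.17 with all sham arrays and 0.46 without the 2, beside the same -0.12 and 0.01 over all genes. Over all genes, 2.93% rose with all sham arrays and 0.513% rose both ways.

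Markers of neighbouring tissue differed between the arrays. The 5 measured striatal genes summed to 2467 to 2897 after injury, 4923 and 7018 in sham 2 and sham 1, 3529 and 3746 in sham 3 and 4, and 2880 to 5009 in naive cortex. Drd2, the dopamine receptor of striatal neurons, read 50.3, 47.7 and 65.3 after injury and 561, 265, 271 and 338 in sham, with -2.66 ± 0.59 (adjusted p = 0.0131) and -2.84 ± 0.72 without the 2 (adjusted p = 0.0569). The 11 skeletal muscle genes summed to 5287 to 5933 after injury, to 6318 in sham 1, 14536 in sham 2, 10949 and 12352 in sham 3 and 4, and 5676 to 6609 in naive cortex. The part of the tissue outside cortex in the falls was not tested.

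**Figure D4:**
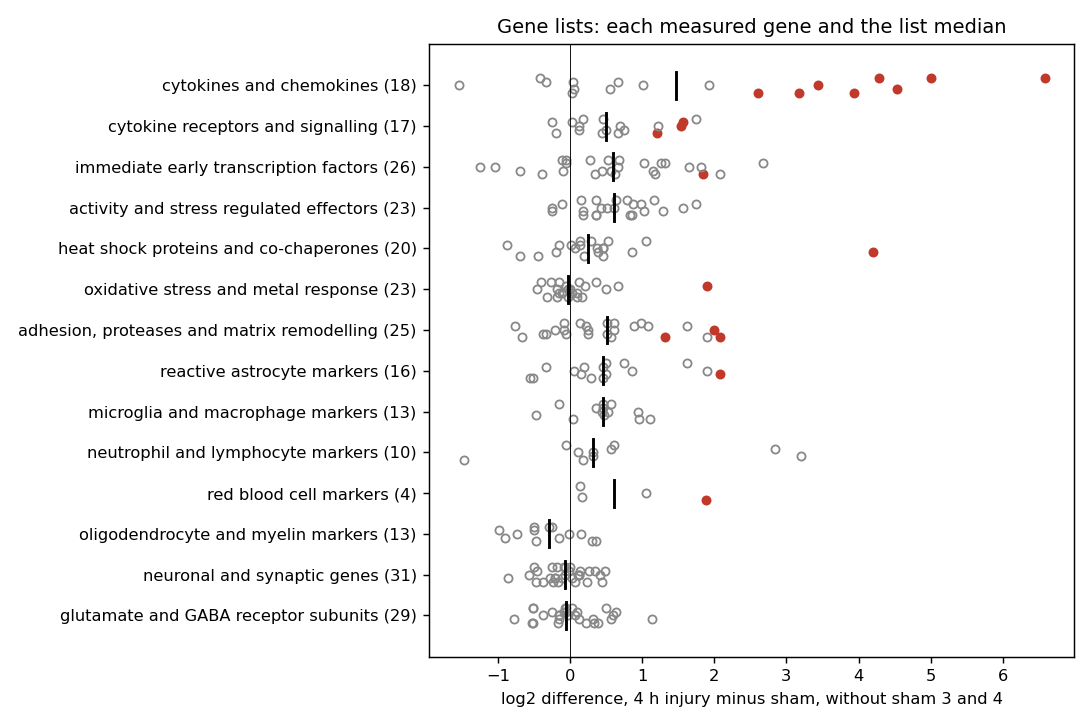
Each circle is 1 measured gene of a list, at its log2 difference of injury minus sham without sham 3 and 4; red circles are genes called both ways, black bars the list medians, and numbers in parentheses the measured genes. Cytokines and chemokines have a median of 1.47 and 8 red genes, while neuronal, myelin and receptor lists centre near 0 with none.

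As sham 1 and 2 are few, injury at 4 h was also set against 16 uninjured rat arrays, namely the sham arrays of all times and the naive arrays without the 3 that correlated least, with 1 poorly correlated injury array of 30 min left out of the fit. This choice was made after the data were seen, and it mixes times after surgery. There, 61 genes rose (1.49%) and 16 fell (0.391%), and 20 of the 22 genes were among them, all but F3 and Hes5. In 20 of the 21 rises every injury array lay above all 16 uninjured arrays, and in 18 (all but Ccl2, Icam1 and F3) above sham 3 and 4 as well. Over all genes this held for 1.49% and 1.22%; the 21 were chosen for their rise at 4 h, so the counts are descriptions. S100a8 and S100a9 had 3.56 (adjusted p = 7.19e-05) and 3.31 (adjusted p = 2.18e-05). Cebpb, a transcription factor of acute inflammation, read 1270, 1929 and 991 after injury and 402, 360, 190 and 409 in sham, and had 2.61 (adjusted p = 3.41e-06). Lcn2, the iron-siderophore binding lipocalin of reactive astrocytes and neutrophils, had 2.35 (adjusted p = 0.000395), and the plasminogen activator gene Plat 1.98 (adjusted p = 2.64e-05). Fosl1, an AP-1 subunit, had 2.49 (adjusted p = 0.000417), with injury 3 at 90.1 below sham 3 and 4 of 4 h at 228 and 378.

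Among the 16 falls, P2ry12, the ADP receptor that resting microglia carry and lose on activation, read 87.6, 95.4 and 289 after injury and 242, 511, 613 and 212 in sham. It had -1.66 (adjusted p = 0.000121), and against sham of 4 h -1.41 with all sham arrays (adjusted p = 0.0351) and -1.39 without sham 3 and 4 (adjusted p = 0.156). RT1-DMb, an antigen presentation gene, had -1.17 (adjusted p = 0.0054), the collagen gene Col1a2 -1.10 (adjusted p = 0.00747) and Id1 -1.08 (adjusted p = 0.000478).

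The 21 rises were also followed over the other times. As they were chosen for their difference at 4 h, the following counts are descriptions. Without sham 3 and 4, 21 were larger at 4 h than at 30 min (53% of all genes) and 17 larger than at 8 h (47.3%). With all sham arrays the counts were 21 (44.2%) and 15 (45.8%), Ccl2, Hmox1, Spp1, Timp1, Icam1 and Ifitm3 being larger at 8 h. At 30 min Ccl3 was called (2.83, adjusted p = 0.0094). The interleukins were not called at 8 h: Il1b had 1.71 (adjusted p = 0.177), Il6 1.91 (adjusted p = 0.59) and Il1a 0.82 (adjusted p = 0.787). By contrast, Spp1 had 4.67 at 8 h (adjusted p = 0.000101), 4.92 at 24 h (adjusted p = 3.46e-05) and 6.94 at 72 h. Ccl2 had 4.62 at 8 h (adjusted p = 0.000576), Timp1 2.53 at 8 h and at 24 h (adjusted p = 0.000185 and 0.000136), and Hmox1 2.42 at 8 h (adjusted p = 0.00539). Hspa1a had 3.15 at 8 h (adjusted p = 0.0526) and 3.72 at 24 h (adjusted p = 0.0232). At 21 d the differences of Ccl3, Spp1, Timp1 and Hmox1 were 0.00, 0.41, -0.20 and 0.04.

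**Figure D5:**
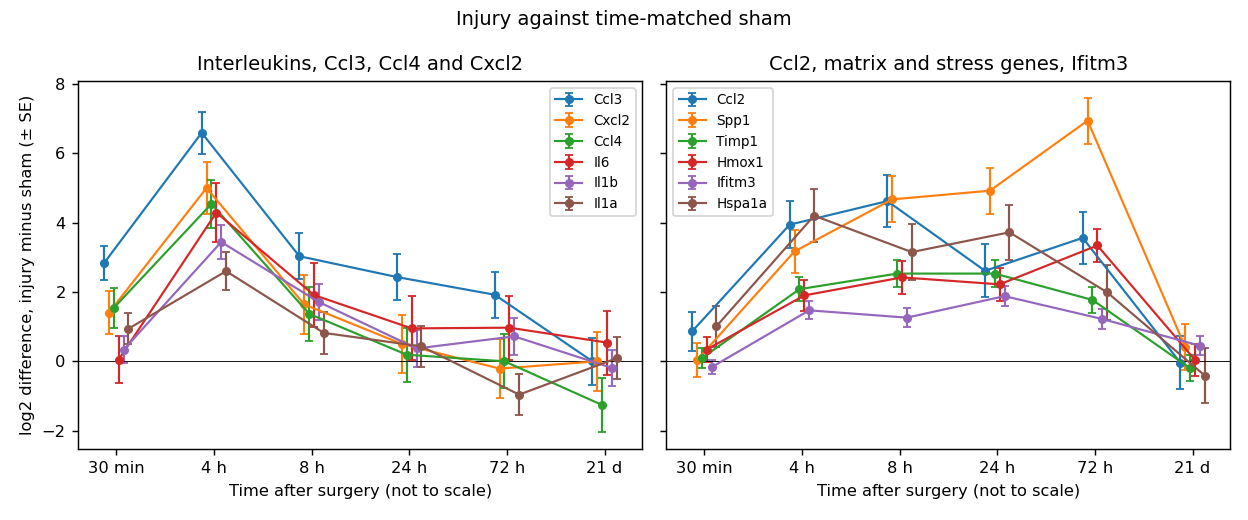
Log2 difference of injury minus time-matched sham (± standard error from limma) at the 6 rat times, with the 4 h value taken without sham 3 and 4; the time axis is not to scale. In the left panel all 6 genes have their largest difference at 4 h, and in the right panel Spp1 reaches 6.94 at 72 h.

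The differences between times were tested directly. All arrays of 30 min and 8 h carry the letter a, so these differences cannot be told apart from the letter b of the 4 h injury arrays. With the letter as a term and all sham arrays, no gene was called in either difference. Between 4 h and 30 min, limma called no gene with all sham arrays, 600 having an unadjusted p below 0.05. Without sham 3 and 4 it called 3 genes (0.0733%), all larger at 4 h. These were Ccl3, by 3.76 ± 0.76, Il1b, by 3.11 ± 0.59, and Ifitm3, by 1.64 ± 0.32, each with adjusted p = 0.0311. With all sham arrays they had 2.86 (adjusted p = 0.228), 2.45 (adjusted p = 0.228) and 1.42 (adjusted p = 0.108). Between 8 h and 4 h, 2 genes were called with all sham arrays (0.0489%) and 1 without the 2 (0.0244%), and 787 had an unadjusted p below 0.05 with all. Grm3, a glutamate receptor of neurons and astrocytes that lowers transmitter release, was called both ways, with -2.46 ± 0.43 (adjusted p = 0.0107) and -2.10 ± 0.38 (adjusted p = 0.0227). Its signal at 4 h was 3829, 3820 and 4143 after injury and 3044, 2116, 2346 and 1011 in sham, and at 8 h its injury difference was -1.47 (adjusted p = 0.0264). Galnt5, an enzyme that starts mucin-type glycosylation, was called with all sham arrays only, with 2.67 ± 0.52 (adjusted p = 0.0302) against 2.28 ± 0.54 (adjusted p = 0.196). The decline of the interleukins and of Ccl3 from 4 h to 8 h did not pass this test (Ccl3 -2.66, adjusted p = 0.181, and Il1b -1.07, adjusted p = 0.354, with all sham arrays, and -3.55, adjusted p = 0.207, and -1.73, adjusted p = 0.623, without the 2). These tests share the 4 h arrays and so are not independent.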

How the data were processed

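Total RNA of single rats was measured on Affymetrix rat arrays of 8799 probe sets. The authors deposited 1 linear intensity per probe set and array. The software is not given in the sources used here. Per the deposited values, each rat array was scaled to a mean, after trimming 2% at each end, of 800.6 to 801.2. How many molecules lie behind a signal is unknown, and the number of arrays limits the precision.

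Control probe sets (59) and those with several gene symbols (308) or none (1426) in GEO's platform annotation were left out. Where the annotation's gene identifier was found in RefSeq, the RefSeq symbol replaced the annotation's symbol. Intensities were floored at the pooled 10th percentile (32.1) and taken as log2. Probe sets above the 40th percentile (202) in at least 3 arrays were kept, 1 per gene (highest mean), which left 4091 genes. limma 3.58.1 in R 4.3.3 fitted 1 mean per group over all 39 rat arrays with a mean trend (26 residual degrees of freedom, 24 without sham 3 and 4), so the spread is shared with other times. P-values measure the spread between single rats. The script was tested on simulated data.

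Named genes were up to 14 rises and 8 falls called both ways, largest first (1 gene fell), up to 3 called members per list (otherwise the 2 with the smallest p), up to 4 per sign for each time difference, and the 3 largest called only with or without sham 3 and 4. The lists and the comparison were chosen with earlier results of these data known. A few genes against the uninjured arrays and within lists were picked after their values were seen. The alternatives tried are in the closing section. Figures used matplotlib 3.10.9 in Python 3.11.15.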

Additional observations from a re-analysis of the deposited data

Results flagged for a closer look

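Among 79 named genes, the 4 sham arrays of 4 h were searched for a single array far from the other 3, and chance flags about 1 in 20. There were 3 such genes, each through sham 3. Its Hba-a3 signal of 305 was the lowest (gap over range 0.842, others 613 to 699), its Il1a signal of 845 the highest (0.833, others 191 to 245) and its Cebpb signal of 190 the lowest (0.834, others 360 to 409).

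The injury effect differed between times for 5 genes, which cannot be told apart from the title letter of the 4 h injury arrays. Without sham 3 and 4, it was larger at 4 h than at 30 min for Ccl3 by 3.76, for Il1b by 3.11 and for Ifitm3 by 1.64. From 4 h to 8 h it changed for Grm3 by -2.46 with all sham arrays and by -2.10 without the 2, and for Galnt5 by 2.67 with all sham arrays.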

How the results depend on the processing

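None of the named genes called at 4 h reversed under 19 alternatives. Over the 22 genes called both ways and these alternatives, 338 of 418 values stayed called and 80 did not. Each value is from 1 fit, with all arrays unless the alternative leaves some out, and not from the rule of being called both ways. The alternative without sham 3 and 4 is a fit on which the 22 were chosen, so its values were called in advance. The count of 204 genes became 99 without the filter, 1 with only the 4 h groups in the fit (5 residual degrees of freedom), 0 with the title letter as a term, 94 with array weights (all 22 among them; weights 0.09 and 0.06 for sham 3 and 4), 48 with all uninjured arrays as control, 25 without sham 3 and 4, 44 without the 4 arrays that stand apart, and 77 against the uninjured arrays without these. Quantile normalization moved the median difference over all genes from -0.12 to 0.01 with all sham arrays. The count of 22 became 14 with it, 1 with the 4 h groups alone, 0 with the letter and 87 with array weights. The 4 h minus 30 min count of 0 became 3 with the floor at the 25th percentile, 11 with weights, and 3 without sham 3 and 4 or without the 4 arrays. The 8 h minus 4 h count of 2 became 4 with the mean of probe sets, 0 with the letter, 9 with weights, and 1 without sham 3 and 4 or without the 4 arrays. Leaving out 1 array of 4 h at a time gave 19 to 1133 genes called (1076 and 1133 without sham 1 or sham 2), 6 to 28 both ways, 0 to 200 for 4 h minus 30 min and 1 to 83 for 8 h minus 4 h. The replicate block gave 259, 25, 1 and 5. Deviations of same-numbered injury and sham arrays from their group means correlated at -0.19, 0.21 and -0.03. Whether the numbers pair the rats cannot be decided from this, because the sham mean includes sham 3 and 4, which stand apart. The cause of the shifts in the counts was not tested.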
